A study of Saccharomyces cerevisiae with 25 samples.

Results

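The genes of pyrimidine nucleotide synthesis were followed through 25 RNA-seq libraries of 1 Saccharomyces cerevisiae strain, taken as cells ran out of phosphate. The 10 genes, URA1, URA2, URA3, URA4, URA5, URA6, URA7, URA8, URA10 and FUR1, were chosen by name from 6648 gene names in the deposited table, and all 10 were found in it. The strain background is BY4741, and all libraries carry a YFP reporter under the PHO84 promoter and the label delta-phm3. There was 1 library from high phosphate medium at 0 min and 24 from no phosphate medium, every 15 min from 15 to 360 min, all of total RNA. No time point had a replicate, and the labels do not say whether the cultures were separate or from 1 clone.

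Pyrimidine synthesis starts with Ura2, which makes carbamoyl phosphate and joins it to aspartate. Ura4 (dihydroorotase) and Ura1 (dihydroorotate dehydrogenase) then make orotate, to which Ura5 or its paralog Ura10 adds ribose phosphate, and Ura3 removes a carboxyl group to give UMP. Ura6 turns UMP into UDP, and Ura7 or its paralog Ura8, the CTP synthases, make CTP from UTP. Fur1 makes UMP from uracil and so bypasses the first steps. BY4741 cells are uracil auxotrophs because URA3 is deleted, and they depend on this bypass. The activator Ppr1 raises genes of the pathway, URA1, URA3 and URA4 among them, when intermediates of the pathway build up.

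Levels are log2 RPM, the log2 of reads per 1000000 listed reads of a library. Depth, obtained by taking the smallest value of each library as 10 reads, ran from 106672 to 1911747 reads. On that reading a gene below 10 reads in a library is unlisted there. The 195 and 345 min libraries were shallow, with 106672 and 188278 reads. VTC4, the current name of PHM3, was listed in 25 of 25 libraries at 8.04 ± 0.24 log2 RPM (SD), so the libraries are described here by their label only. HIS3, LEU2 and MET17, the other auxotrophic loci of BY4741, were listed in 0 libraries. The MATa pheromone genes MFA1 and MFA2 were listed in 25 libraries, and the MAT alpha genes MF(ALPHA)1 and MF(ALPHA)2 in 1 and 0. The MAT alpha genes STE3 and SAG1 had values in 22 libraries (mean 4.85 log2 RPM) and 19 libraries (mean 4.34). The libraries at 90 and 105 min lay close to 0 min, with Pearson's r of 0.971 and 0.976 across the 2205 genes listed in all libraries, against 0.726 at 45 min and 0.671 at 135 min. The libraries without phosphate were read in windows of 8: 15 to 120 min (early), 135 to 240 min (middle) and 255 to 360 min (late).

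The promoters of the paralog pairs are shown first because much of what follows concerns these 4 genes. Each window covers 250 bases, from 300 to 51 bases before the start codon, read from the R64 genome (RefSeq), 5′ to 3′ on the strand of the gene. Capitals mark motif matches on either strand.
URA7 (chrII:145779-146028, minus strand): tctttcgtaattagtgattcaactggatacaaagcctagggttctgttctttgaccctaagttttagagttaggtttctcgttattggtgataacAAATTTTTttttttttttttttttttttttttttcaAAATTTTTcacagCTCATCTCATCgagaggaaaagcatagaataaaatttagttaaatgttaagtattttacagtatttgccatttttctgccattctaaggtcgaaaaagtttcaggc
URA8 (chrX:620454-620703, plus strand): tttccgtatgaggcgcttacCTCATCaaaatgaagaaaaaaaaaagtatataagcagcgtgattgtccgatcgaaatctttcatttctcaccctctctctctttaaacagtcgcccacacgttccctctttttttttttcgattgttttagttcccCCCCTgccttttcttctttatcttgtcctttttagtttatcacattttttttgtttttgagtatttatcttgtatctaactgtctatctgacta
URA5 (chrXIII:56473-56722, plus strand): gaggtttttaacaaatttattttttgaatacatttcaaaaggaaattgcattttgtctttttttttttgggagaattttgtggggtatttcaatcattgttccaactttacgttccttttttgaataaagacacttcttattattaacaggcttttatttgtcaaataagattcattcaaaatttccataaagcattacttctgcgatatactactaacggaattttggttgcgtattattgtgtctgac
URA10 (chrXIII:807599-807848, minus strand): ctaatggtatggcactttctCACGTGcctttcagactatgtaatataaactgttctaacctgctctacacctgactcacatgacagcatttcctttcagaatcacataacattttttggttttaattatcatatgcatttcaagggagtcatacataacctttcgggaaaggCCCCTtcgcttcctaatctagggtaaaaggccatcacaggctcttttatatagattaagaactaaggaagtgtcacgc

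The motifs searched were GATGAG and AAAAATTT, the cores of the PAC and RRPE elements of ribosome biogenesis genes; AGGGG, the stress response element bound by Msn2 and Msn4; CACGTG, bound by Pho4; and CGG and CCG with 6 bases of any kind between them, bound by Ppr1. The URA7 window held 2 matches to the PAC core, which overlap by a base, and 2 to the RRPE core. The URA8 window held 1 stress element and 1 PAC core. The URA10 window held 1 stress element and 1 CACGTG. The URA5 window held no match to any of the 5. Over the windows of 6001 protein-coding genes, the PAC core occurred in 17.8%, the RRPE core in 14.1%, the stress element in 19.2%, CACGTG in 3.27% and the Ppr1 motif in 1.28%. FUR1 held 1 PAC core and 1 RRPE core, and URA2 and URA6 held none of the 5. A match is a description of letters and not a binding site.

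The Ppr1 motif was found before 3 of the 10 genes, URA1, URA3 and URA4. URA1 held 2 matches, and URA1 and URA3 also held 1 RRPE core each. The matches of URA1 and URA4 are shown in capitals with 10 bases on each side. That of URA3, for which no comparison is given, is not shown. A link between the motif and the levels of these genes was not tested.
URA1, first match (chrXI:25003-25014, plus strand): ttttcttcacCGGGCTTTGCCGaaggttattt
URA1, second match (chrXI:25034-25045, plus strand): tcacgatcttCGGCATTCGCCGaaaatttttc
URA4 (chrXII:963655-963666, plus strand): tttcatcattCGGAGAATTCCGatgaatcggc

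URA1 and URA4 fell and URA10 rose. The CTP synthase genes changed places more than once. URA7 was the more abundant at 0 and 90 min. URA8 was the more abundant at 45 min and, from 120 min on, in every library with both values. In exact permutation tests of their ratio, the change from early to late did not pass (adjusted p = 0.0558). The change from early to middle (adjusted p = 0.0487) lost its call without any 1 of 11 libraries. Late in the course the URA1 transcript stood 7.46-fold below high phosphate and URA4 2.79-fold below. URA10 had no value at 0 min, and its late mean was at least 19.5-fold higher than the level of 10 reads in that library. URA2, URA5, URA6, URA7 and FUR1 did not pass in any of the 5 comparisons. In bulk RNA, fewer cells and less RNA per cell cannot be told apart, and the lack of phosphate is confounded with washing, fresh medium and time in culture. In the comparison of the late window with 0 min, which asks what differed from 255 min on without phosphate, 8 of the 10 genes could be tested with limma: 1 was higher and 2 were lower after Benjamini-Hochberg adjustment over all genes. Of all 4613 tested genes, 25% were higher and 5.46% lower, 30.5% together. This balance depends on the scaling. When each library was centred on the median of tested genes (the first centring), 0 of the 8 genes were higher and 4 lower, beside 8.52% and 9.54% of all genes. When it was centred on genes listed in all 25 libraries (the second), 0 were higher and 3 lower, beside 13% and 9.49%. The higher call of URA8 was lost in both. The median difference of the 8 genes was -0.72, or -0.51 with URA10 added at its bound, against 0.42 over all tested genes.

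**Figure D1:**
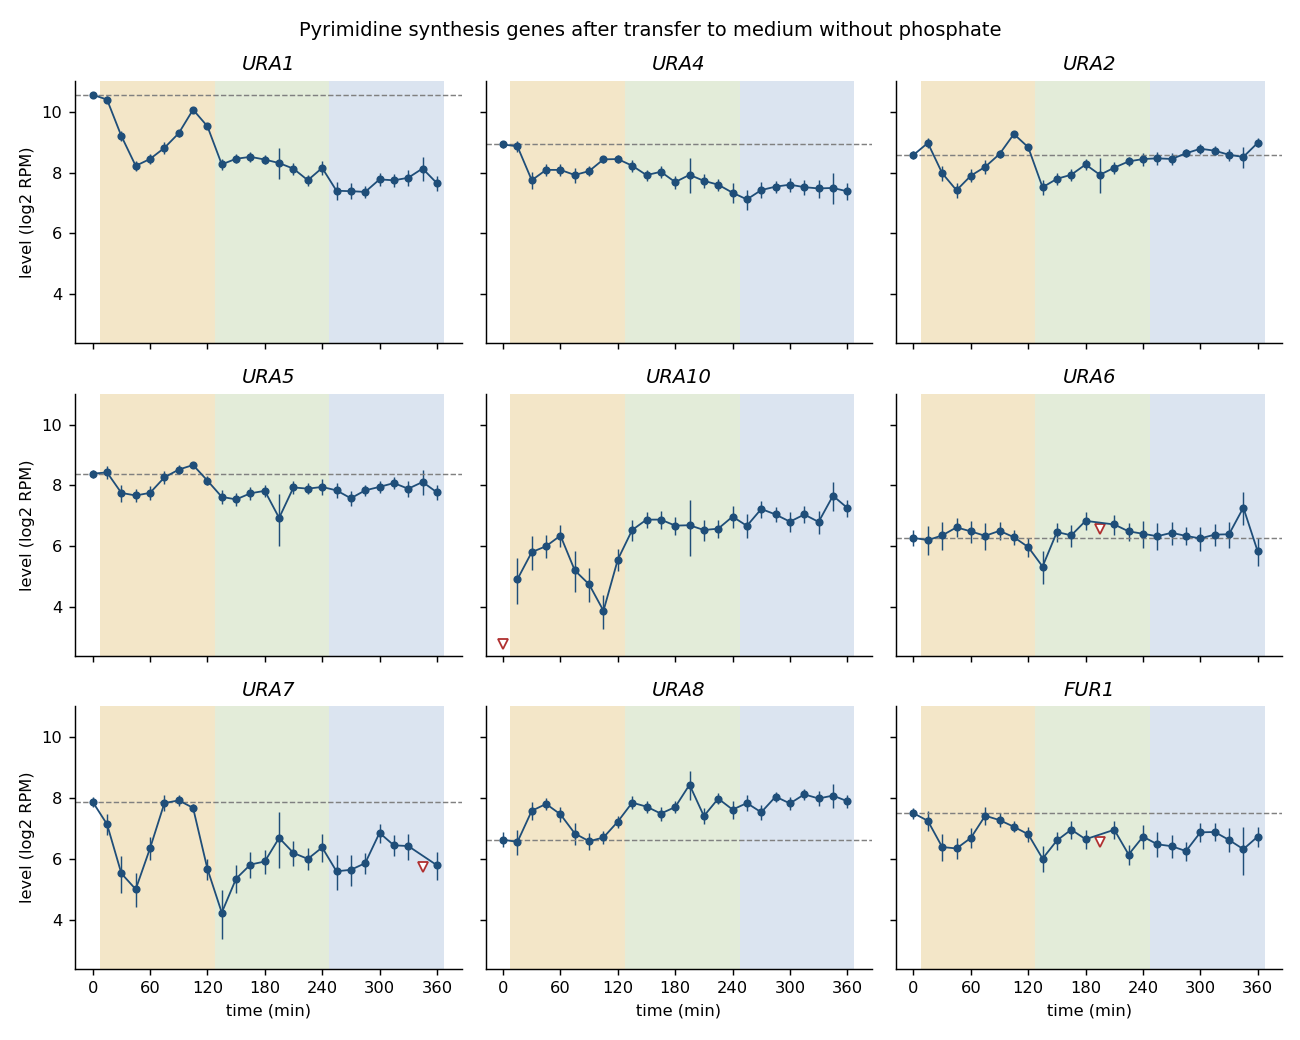
Level (log2 RPM) of 9 genes in each of 25 libraries by time. Bars are exact 95% Poisson intervals of the reads, open triangles mark the listing limit of a library in which the gene had no value, the dashed line is the 0 min level, and shading marks the early, middle and late windows. URA1 and URA4 stay below their 0 min level in all 24 later libraries, and URA10 climbs from 3.87 at 105 min to between 6.67 and 7.66 in the late window.

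URA2 (chromosome X, 165723 to 172367, R64, minus strand, 1 exon) encodes the enzyme that UTP inhibits. Its level was 8.58 log2 RPM at 0 min. It ran from 7.42 through a median of 8.40 to 9.27 in the early window, from 7.52 through 8.05 to 8.45 in the middle window and from 8.45 through 8.61 to 8.98 in the late window. The early window spans both extremes, with 7.42 at 45 min and 9.27 at 105 min, and 9 of 24 libraries lay above 0 min. The late window differed from 0 min by 0.06 (SE 0.43, 95% interval -0.81 to 0.93, limma adjusted p = 0.926), a difference that turned to -0.51 and -0.38 with each library centred on the median of tested genes or on genes listed in all 25. All 8 late values lay just above all 8 middle values, but the difference of 0.59 (SE 0.20) did not pass in limma (adjusted p = 0.1). It passed with library weights (0.55, adjusted p = 0.0103), a fit in which 9.69% of all genes were higher and 8.33% lower. Without weights, of 4634 genes 1.17% were higher and 0.906% lower in this comparison, 2.07% together, and 0 of the 9 pyrimidine genes passed. An unadjusted p under 0.05 was found for 3 of the 9, beside 880 of the 4634 genes.

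URA4 (chromosome XII, 963785 to 964879, plus strand), the dihydroorotase gene, was at 8.93 log2 RPM at 0 min. It ran from 7.75 through a median of 8.09 to 8.86 early, from 7.34 through 7.83 to 8.23 in the middle and from 7.12 through 7.49 to 7.60 late. All 24 libraries without phosphate lay below 0 min, and the early and late windows did not overlap. URA4 was lower than at 0 min in the middle window (-1.12, SE 0.31, limma adjusted p = 0.00903), where 3 of the 8 pyrimidine genes passed (URA1 and URA4 lower, URA8 higher) beside 20.6% of all genes higher and 5.12% lower, 25.7% together, and the late window (-1.48, SE 0.31, adjusted p = 0.000638). In the early window the difference of -0.72 (SE 0.31) did not pass (adjusted p = 0.313). From the early to the late window URA4 fell by 0.76 (SE 0.15, adjusted p = 0.000143). In the middle window the first centring gave 0 pyrimidine genes higher and 4 lower, beside 5.72% and 8.3% of all genes, and the second 0 and 5, beside 9.67% and 8.74%.

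URA1 (chromosome XI, 25215 to 26159, plus strand), the dihydroorotate dehydrogenase gene, was the most abundant of the 10 per length at 0 min. Its level there was 10.56 log2 RPM. It ran from 8.22 through a median of 9.25 to 10.41 early, from 7.75 through 8.29 to 8.52 in the middle and from 7.37 through 7.70 to 8.14 late. All 24 libraries lay below 0 min, and every late value lay below every early one. The early values were not in 1 direction, with 8.22 at 45 min and 10.07 at 105 min, and the first value of the middle window was 8.27 at 135 min.

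In limma URA1 was lower than at 0 min in the middle window (difference -2.31, SE 0.48, adjusted p = 0.000894) and in the late window (difference -2.90, SE 0.48, adjusted p = 6.58e-05). Of the 4613 tested genes, 76 had a lower late difference. The early difference of -1.31 did not pass (adjusted p = 0.235), but it did without the 90 and 105 min libraries (-1.46, adjusted p = 0.0361), a fit in which 11.7% of all genes were higher and 1.76% lower. With all libraries, in the early comparison 0.694% of tested genes were higher and 0% lower, and 0 of the 8 pyrimidine genes passed. An unadjusted p under 0.05 was found for 2 of the 8, URA1 and URA4, beside 647 of all 4613 genes. From early to late URA1 fell by 1.59 (SE 0.23, adjusted p = 2.56e-06). Across 25 libraries URA1 and URA4 had a Pearson's r of 0.888 and Spearman's rho of 0.832, given as a description of libraries that are neighbours in time. The ribosomal protein gene RPL3 fell from 12.12 log2 RPM at 0 min to 9.38 at 255 min while the heat shock gene HSP26 went from 6.65 to 11.54, and the part of that shift in the URA1 and URA4 values was not tested.

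URA5 (chromosome XIII, 56773 to 57453, plus strand) and URA10 (chromosome XIII, 806865 to 807548, minus strand) encode the major and the minor orotate phosphoribosyltransferase. Their coding sequences are 69.5% identical over 675 aligned bases, with no identical run over 11 bases, and each held whole numbers of reads in all libraries where it was listed. URA5 was at 8.39 log2 RPM at 0 min. It ran from 7.67 through a median of 8.21 to 8.67 early, from 6.93 through 7.78 to 7.95 in the middle and from 7.58 through 7.86 to 8.11 late. The 3 windows overlapped, and 21 of 24 libraries lay below 0 min. Its late difference from 0 min was -0.51 (SE 0.34, 95% interval -1.20 to 0.19, limma adjusted p = 0.269). In the middle window it was -0.71 (adjusted p = 0.12), and it passed only with libraries centred on genes listed in all 25 (-1.15, adjusted p = 0.0489).

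URA10 had fewer than 10 reads at 0 min, where 10 reads correspond to 2.77 log2 RPM. It ran from 3.87 through a median of 5.38 to 6.35 early, from 6.53 through 6.68 to 6.97 in the middle and from 6.67 through 7.04 to 7.66 late. Neither later window overlapped the early one. The early peak was 6.35 at 60 min, and the level was back at 3.87 at 105 min. The means of the windows were at least 5.78-fold, 15.4-fold and 19.5-fold above the 0 min limit. From early to late URA10 rose 3.38-fold (1.76, SE 0.23, limma adjusted p = 9.81e-07), and 54 of 4634 tested genes had a larger difference. In this comparison 31.5% of genes were higher and 8.85% lower, 40.4% together, and of 9 pyrimidine genes URA8 and URA10 were higher and URA1 and URA4 lower. These 4 calls held with either centring and without any 1 library. With the centrings FUR1 was lower as well, beside 12.9% of all genes higher and 18.1% lower in the first and 21.1% and 15.4% in the second.

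The ratio of URA5 to URA10 within a library does not depend on the scaling of that library. URA10 held less than 2.004% of the reads of the pair at 0 min, 27.4% at 60 min (exact binomial 95% interval 21.6 to 33.8), 3.47% at 105 min (2.32 to 4.98) and between 30.8% and 43.9% in the late libraries. The log2 ratio averaged 2.85 ± 1.17 early, 0.96 ± 0.37 in the middle and 0.82 ± 0.34 late (SD, n = 8 libraries each). The early mean exceeded the late mean by more than the spread of either window (change -2.03), and the 2 windows did not overlap. In exact two-sided permutation tests the late and the middle ratio each differed from the early one with p = 0.000155, the smallest p these windows allow (adjusted p = 0.000311 over 4 paralog tests). URA5 stayed the more abundant in all 24 libraries in which both were listed.

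**Figure D2:**
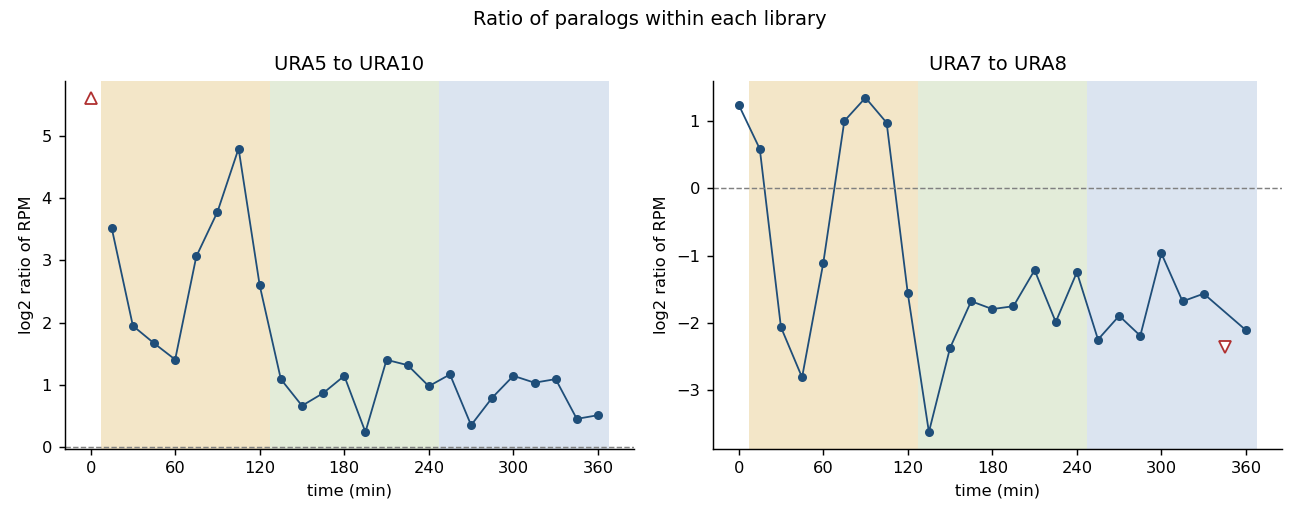
Log2 ratio of RPM of URA5 to URA10 (left) and of URA7 to URA8 (right) in each library by time. Open triangles are limits from libraries in which URA10 (0 min, a lower limit) or URA7 (345 min, an upper limit) had no value, and the dashed line marks equal levels. The URA7 to URA8 ratio starts at 1.24, goes to -2.81 at 45 min, returns to 1.34 at 90 min and is -3.62 at 135 min.

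URA3 (chromosome V, 116167 to 116970, plus strand), the auxotrophic locus, was listed in 1 of 25 libraries, at 105 min. It had 15 reads there, or 2.97 log2 RPM, with an exact Poisson interval from 2.14 to 3.69. That library was the deepest. Only the libraries at 0 and 120 min had a listing limit below this level (2.77 and 2.88), so a level of 2.97 could have been listed in 3 libraries in all. The origin of these reads was not tested. No fold or comparison is given for URA3.

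URA6 (chromosome XI, 392526 to 393140, minus strand), the uridylate kinase gene, showed no detectable difference. It was at 6.27 log2 RPM at 0 min and ran from 5.97 through a median of 6.34 to 6.62 early, from 5.33 through 6.46 to 6.83 in the middle (n = 7) and from 5.83 through 6.36 to 7.27 late. The windows overlapped. The late difference was 0.13 (SE 0.39, 95% interval -0.67 to 0.93, limma adjusted p = 0.824), and it took the opposite sign with either centring (-0.44 and -0.31).

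URA7 and URA8 encode the CTP synthases. URA7 (chromosome II, 143989 to 145728, minus strand), the major isozyme, was at 7.87 log2 RPM at 0 min. It ran from 4.998 through a median of 6.74 to 7.92 early, from 4.23 through 5.95 to 6.69 in the middle and from 5.59 through 5.86 to 6.86 late (n = 7). Its low points were 28 reads at 45 min and 14 reads at 135 min, and at 90 min it stood at 7.92, with 254 reads, the single library above 0 min. The 22 other libraries with a value lay below 0 min, and the 345 min library had none.

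The URA7 differences from 0 min of -1.24, -2.06 and -1.79 (SE 0.81, 0.81 and 0.82) in the early, middle and late windows did not pass in limma (adjusted p = 0.458, 0.0614 and 0.0988). The spread within the early window, an SD of 1.16, enters these errors. The middle difference passed with either centring (-2.64 and -2.49, adjusted p = 0.0251 and 0.0402), and without the 45, 90 or 195 min library (adjusted p as low as 0.0377). The same difference passed with library weights (-2.02, adjusted p = 0.0225). In limma without the 90 and 105 min libraries its adjusted p was 0.0314, and without the 195 and 345 min libraries 0.04835. The late difference passed with the first centring (-2.29, adjusted p = 0.0454) and with library weights (-1.79, adjusted p = 0.0383).

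URA8 (chromosome X, 620754 to 622490, plus strand), the minor isozyme, was at 6.63 log2 RPM at 0 min. It ran from 6.55 through a median of 7.03 to 7.81 early, from 7.41 through 7.71 to 8.44 in the middle and from 7.53 through 7.94 to 8.12 late. Both later windows lay wholly above 0 min, and 22 of 24 libraries did. In limma it was higher than at 0 min in the middle (1.14, SE 0.38, adjusted p = 0.0254) and the late window (1.28, SE 0.38, adjusted p = 0.0103). Neither call held with each library centred on the median of tested genes (0.56 and 0.71, adjusted p = 0.318 and 0.162) or on genes listed in all 25 (0.70 and 0.84, adjusted p = 0.123 and 0.0557). The rise from early to late (0.82, SE 0.18, adjusted p = 0.000494) held with both (adjusted p = 0.0212 and 0.00162).

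The coding sequences of URA7 and URA8 are 72.2% identical, with no identical run over 17 bases, and both held whole reads wherever listed. URA8 held 29.7% of the reads of the pair at 0 min (exact binomial 95% interval 25.7 to 33.985). The share was 87.5% at 45 min (82.4 to 91.5), 28.2% at 90 min (23.6 to 33.2) and 92.5% at 135 min (87.7 to 95.8). From 120 min on URA8 was the more abundant in every library with both values, with 66.2% to 82.6% in the late window. The reads of 1 library need not be independent molecules, so these intervals cover counting error only.

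The log2 ratio of URA7 to URA8 averaged -0.45 ± 1.61 early (SD, n = 8), -1.96 ± 0.77 in the middle (n = 8) and -1.81 ± 0.45 late (n = 7). The early window overlapped both others. The change from early to middle of -1.502 gave p = 0.0365 in the exact permutation test (adjusted p = 0.0487), and it lost the call without any 1 of 11 libraries (adjusted p up to 0.0982) and without the 90 and 105 min libraries (-0.96, adjusted p = 0.204). The change from early to late of -1.35 did not pass (p = 0.0558 in the exact permutation test, adjusted p = 0.0558). The smallest p possible was 0.000155 and 0.000311.

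FUR1 (chromosome VIII, 362115 to 362765, plus strand), the salvage gene, was at 7.501 log2 RPM at 0 min. It ran from 6.34 through a median of 6.93 to 7.42 early, from 6.01 through 6.64 to 6.96 in the middle (n = 7) and from 6.26 through 6.55 to 6.88 late. All 23 libraries with a value lay below 0 min. The late difference of -0.93 (SE 0.37) missed the threshold in limma (adjusted p = 0.0562). It passed with library weights (-0.92, adjusted p = 0.0499), with either centring (-1.505 and -1.37, adjusted p = 0.0138 and 0.0156) and when any 1 of 6 libraries (30, 45, 75, 135, 300 or 315 min) was left out, with adjusted p down to 0.0446. The middle difference of -0.92 (adjusted p = 0.066) and the change from early to late of -0.33 (adjusted p = 0.132) did not pass in limma either, and both did with either centring (adjusted p = 0.0339 and 0.0247 in the middle, 0.0144 and 0.0332 from early to late).

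**Figure D3:**
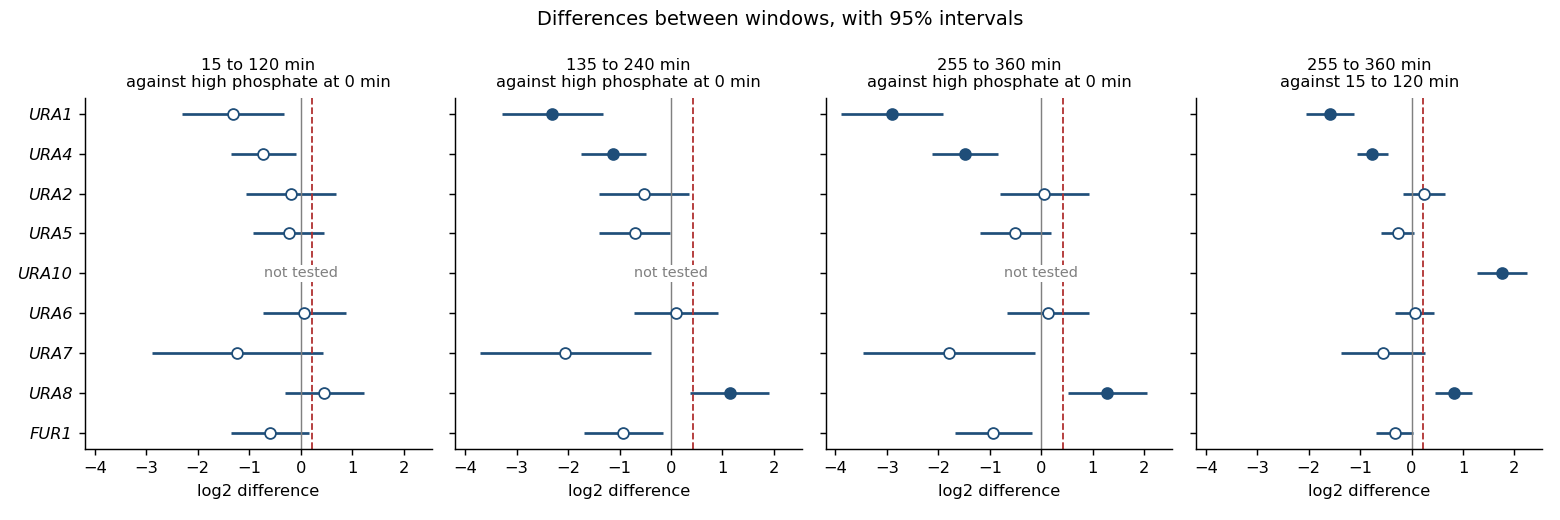
Log2 difference of each gene with its 95% interval from limma, in 4 comparisons of windows. Filled points passed at an adjusted p of 0.05, open points did not, and the dashed line is the median of all tested genes (0.22, 0.43, 0.42 and 0.23 from left to right). URA10 had no value at 0 min and is tested in the last comparison only.

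Change over the 24 libraries without phosphate was also tested with a spline of time, which does not use 0 min. Of 9 tested genes, 4 passed in limma: URA10 (adjusted p = 0.000442), URA1 (adjusted p = 0.000565), URA4 (adjusted p = 0.00216) and URA8 (adjusted p = 0.0191). Among all 4634 genes 31.1% passed. Without any 1 library, between 3 and 5 of the 9 passed. URA7 did not pass (adjusted p = 0.716). It went from 4.998 at 45 min to 7.92 at 90 min and 4.23 at 135 min, and a spline with 4 degrees of freedom may not follow such a course.

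The order of the genes changed between 0 min and the late window. Per length, as log2 RPM per kb of coding sequence, URA1 led at 0 min with 10.64, followed by URA5 with 8.94, URA4 with 8.80 and FUR1 with 8.12. URA7 and URA6 followed with 7.07 and 6.97, and URA2 and URA8 were close together at 5.85 and 5.84. With 1 library at 0 min, neighbours in this order have no spread to be set against. In the late window URA5 led with 8.43 ± 0.17 (SD, n = 8 libraries). URA1 (7.75 ± 0.27), URA10 (7.61 ± 0.32), URA4 (7.32 ± 0.15), FUR1 (7.19 ± 0.24), URA8 (7.12 ± 0.19) and URA6 (7.10 ± 0.40) followed, and no neighbours among these 6 differed by more than the larger of their SDs. URA2 (5.91 ± 0.18) and URA7 (5.29 ± 0.49, n = 7) were lowest, each apart from the gene above it by more than that.

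For each gene the 3 genes of the table with the highest Pearson's r were looked up, over the libraries where both were listed. URA1 was most like the ribosomal protein genes RPS28A, RPL22A and RPS2 (0.928, 0.920 and 0.917, n = 25). URA4 was most like URA1, ASC1 and RPL41A (0.888, 0.876 and 0.857, n = 25). URA7 was most like RPA135, CBF5 and NUG1 (0.966, n = 23, and 0.960 and 0.957, n = 24), FUR1 like TIF6, FPR4 and TIF5 (0.861, 0.860 and 0.860), and URA5 like ASP1, RKI1 and LEU9 (0.924, 0.884 and 0.878). URA10 was most like GPG1, GRX1 and YOR152C (0.968, 0.959 and 0.957, n = 24) and URA8 like DCS1, AMS1 and UGX2 (0.948, 0.936 and 0.935), over 23 to 25 libraries. URA2 (TAT1, MDN1 and TYW1) and URA6 (MCD1, SIR2 and AKR2) had lower values, up to 0.775 and 0.724. These are descriptions over libraries that share depth and time.

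Of the other genes that feed or use the pathway, the nucleotidase genes moved furthest. These, PHM8 and SDT1, were the 2 of 7 tested salvage and transport genes that were higher late than at 0 min, and 0 were lower. That share is near the 25% of all tested genes that were higher. PHM8 was at 5.79 log2 RPM at 0 min and averaged 9.81 ± 0.13 late (difference 4.02, SE 0.52, limma adjusted p = 3.66e-06). SDT1 was at 5.77 and averaged 8.30 ± 0.10 (difference 2.52, SE 0.35, adjusted p = 9.28e-06), and it was the 1 gene of this list that passed early (1.67, adjusted p = 0.0149). The late calls of both held with either centring, and the early call of SDT1 was lost with the first.

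The uridine permease gene FUI1 was lower in the middle window (-1.81, SE 0.61, adjusted p = 0.0285), while its late difference of -1.10 did not pass (adjusted p = 0.17). FCY2, the purine and cytosine permease gene, rose from early to late (1.12, adjusted p = 1.6e-05), but only 1 of its 25 values was a whole number of reads, so it may share reads with similar genes. The uracil permease gene FUR4 was listed in 18 libraries at a mean of 4.34 and was not tested, as were CDD1 and DAL4. The remaining tested genes, FCY1, URK1 and URH1, did not pass late against 0 min.

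CPA1 encodes a subunit of the enzyme that makes carbamoyl phosphate for arginine. It was at 7.69 log2 RPM at 0 min and ran from 7.42 to 8.39 early, with a late mean of 9.40 ± 0.42. It was higher late than at 0 min (1.71, SE 0.42, limma adjusted p = 0.00282), also with either centring, and it rose from the middle to the late window (0.84, SE 0.20, adjusted p = 0.0193). Of the 5 genes of phosphoribosyl pyrophosphate synthetase, PRS1 to PRS5, 0 passed late against 0 min in limma, beside 30.5% of all tested genes. An unadjusted p under 0.05 was found for 0 of the 5, beside 1882 of all 4613 genes. PRS1, at -0.92 (adjusted p = 0.135), passed with either centring (adjusted p = 0.0464 and 0.0462).

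Of 8 tested genes of deoxynucleotide and nucleoside diphosphate steps, 3 were higher late than at 0 min in limma and 0 lower, beside 25% and 5.46% of all tested genes. These were the ribonucleotide reductase genes RNR2 (1.63, SE 0.37, adjusted p = 0.00132) and RNR4 (1.41, SE 0.37, adjusted p = 0.00429) and the nucleoside diphosphate kinase gene YNK1 (1.36, SE 0.46, adjusted p = 0.0249). With the first centring none of the 3 passed, and RNR2 alone did with centring on genes listed in all 25 (adjusted p = 0.031). From early to late RNR2 (1.17, SE 0.17, limma adjusted p = 4.63e-06) and RNR4 (1.29, SE 0.17, adjusted p = 9.57e-07) rose. CDC8, the thymidylate kinase gene, fell (-0.57, SE 0.15, adjusted p = 0.00262). In that comparison 2 of the 8 genes were higher and 1 lower, beside 31.5% and 8.85% of all genes. The counts were 2 and 3 with the first centring, beside 12.9% and 18.1%, and 2 and 2 with the second, beside 21.1% and 15.4%. RNR3 was listed in 11 libraries, none of them at 0 min or in the early window. PPR1, the activator gene, was listed in 9 libraries at a mean of 3.75 and was not tested, and DST1 differed by -0.01 (adjusted p = 0.984).

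The purine synthesis genes did not show a common direction late against 0 min. Of 15 tested, 4 were higher and 2 lower late against 0 min in limma, with a list median of 0.37 beside 0.42 for all tested genes, of which 25% were higher and 5.46% lower. ADE17 (1.98, adjusted p = 0.00511), ADE12, ADE1 and ADE2 were higher, while the first centring left 0 higher and 2 lower. IMD4 (-2.03, adjusted p = 0.0127) and IMD2 (-1.19, adjusted p = 0.0168) were lower, and their reads were whole in 11 and 3 libraries, so they may be shared among the IMD genes. ADE3 passed against 0 min in the middle window (0.88, adjusted p = 0.0295) but not there with either centring (0.29 and 0.44, adjusted p = 0.693 and 0.246). From early to late IMD2 (-0.68, limma adjusted p = 0.00304) and ADE13 (-0.44, adjusted p = 0.0427) fell. In that comparison 0 of the 15 were higher and 2 lower, beside 31.5% and 8.85% of all genes. The counts were 0 and 4 with the first centring, beside 12.9% and 18.1%, and 0 and 5 with the second, beside 21.1% and 15.4%.

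**Figure D4:**
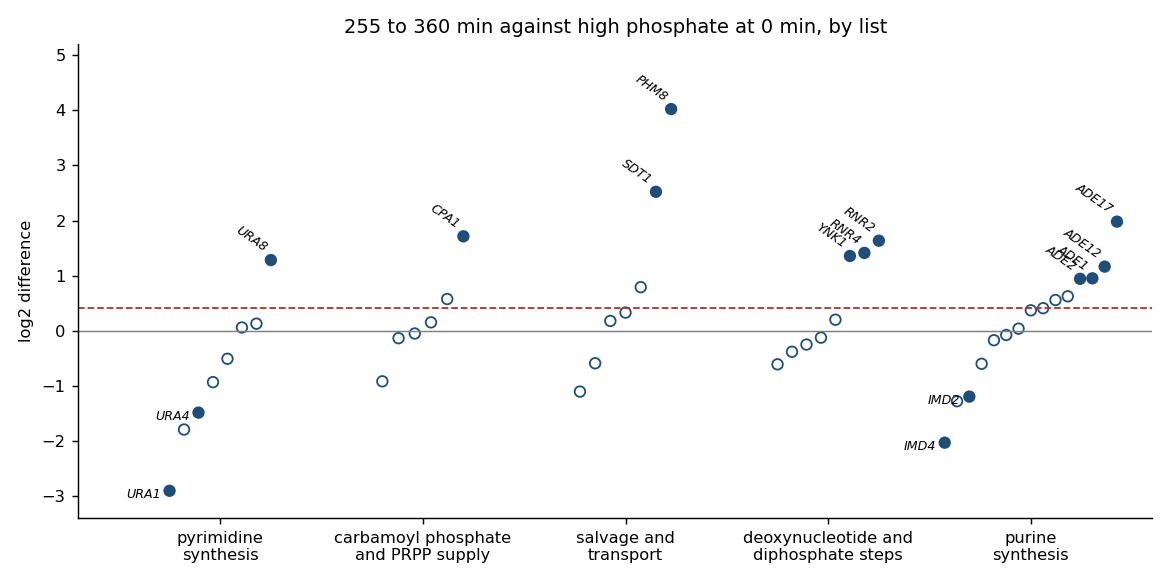
Log2 difference of the late window from 0 min for tested genes of 5 lists. Filled points passed in limma at an adjusted p of 0.05 and are named, open points did not, and the dashed line is the median of all 4613 tested genes (0.42). PHM8 and SDT1 stand highest, at 4.02 and 2.52, and URA1 lowest, at -2.90.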

How the data were processed

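Total RNA of 25 libraries of 1 yeast strain had been sequenced as cDNA, per the labels' protocols. Reads were aligned with Bowtie to build R64, per the submitters' processing notes; the annotation, the counting and any filters are not stated there. Values as deposited by the authors are log2 RPM (linear values sum to 1000000 in each library) and are not relative to 0 min. The smallest value of each library was taken as 10 reads, which gave the depth. Between 93.5% and 95.4% of values were then whole reads within 0.02. Of 6701 rows, 51 without a name and 2 sharing a name were left out. A limma model (3.58.1, R 4.3.3) with 0 min and the 3 windows as levels took all 25 libraries. A gene was tested if 6 or more libraries per window had a value and, against 0 min, if that library did. Adjustment was by Benjamini-Hochberg over all tested genes at 0.05. The lone 0 min library has no spread of its own and borrows that of the windows. The p-values measure only the spread between neighbouring times, which are not independent. Since values are shares of a library, the fall of abundant transcripts raises others. The spline had 4 degrees of freedom. Paralog ratios were tested by exact permutation over libraries. Fits were tested on simulated data with independent noise, which does not cover the dependence between neighbouring times. Named genes were all 10 members, the passing members of 5 further lists and, for lists under 7 genes, all, plus the 3 most alike genes. The members, lists and windows were chosen with earlier results of these data known. Coordinates and promoters are from the RefSeq R64 assembly. One gene of the supply list is not reported here.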

Additional observations from a re-analysis of the deposited data

Results flagged for a closer look

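In 33 groups of 7 or 8 libraries, single libraries stood apart from the rest of their window in 4, and chance gives about 1 in 20 groups. URA6 stood at 5.33 log2 RPM at 135 min, below the next value of 6.35. URA6 stood at 7.27 at 345 min, a shallow library, above the next value of 6.44. URA5 stood at 6.93 at 195 min, the shallowest library, below 7.54. URA4 stood at 7.12 at 255 min, below 7.39.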

How the results depend on the processing

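No paired analysis was possible, since no time point had a replicate and the labels give no replicate numbers. URA1, URA4 and URA10 kept their calls and directions under all settings tried that could test them, and URA8 lost its calls against 0 min under both centrings. With libraries centred on the median of tested genes, the median tested gene stood at -0.14 late against 0 min, and 833 genes (393 higher, 440 lower) passed there, 9 early, 647 in the middle and 44 late against middle, in place of 1406, 32, 1185 and 96. With the second centring, on the 2205 genes always listed, 219 passed late against middle. In the middle window against 0 min, 5 pyrimidine genes then passed in place of 3, 0 higher and 5 lower in place of 1 and 2, beside 9.67% of all genes higher and 8.74% lower. Restricted to genes listed in every library, 913 passed late against 0 min and 1076 late against early, of 2205 tested. With unlisted values at the listing limit, URA10 passed in limma against 0 min early (2.53, adjusted p = 0.0163), in the middle (3.94, adjusted p = 1.64e-05) and late (4.29, adjusted p = 2.82e-06). Its 0 min value is then the limit itself. Early, that made 1 pyrimidine gene of 9 higher in place of 0, beside 0.49% of all genes. The late URA7 to URA8 ratio passed too (-1.42, adjusted p = 0.0392 in the exact permutation test). With library weights, 5 pyrimidine genes (1 higher, 4 lower) passed late against 0 min, beside 28.8% of all genes higher and 6.7% lower. Late against middle, 2 passed (1 higher, 1 lower) beside 835 genes in all, and early against 0 min 298 genes passed. Without the 90 and 105 min libraries, 1 pyrimidine gene and 603 genes in all passed early, 240 late against middle, and the middle URA7 to URA8 ratio did not pass (-0.96); without the 195 and 345 min libraries it was -1.53 (adjusted p = 0.0558). The cause was not tested.

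Directions that turned belong to genes that did not pass. With the first centring URA2 was -0.51 late against 0 min and -0.073 late against early, and URA6 was -0.44 late, -0.18 early and -0.33 in the middle against 0 min, -0.26 late against early and -0.11 late against middle. With the second centring URA2 was -0.38, and URA6 -0.31, -0.17, -0.31, -0.14 and -0.001. URA6 late against middle was -0.21 with library weights. Without the 195 and 345 min libraries URA6 was -0.066 late against early and -0.091 late against middle, and FUR1 0.031.

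Leaving out 1 library at a time gave 26 to 116 genes early against 0 min, the most without the 90 or 105 min library, and 61 (without the 165 min library) to 143 late against middle. URA6 ran from -0.066 to 0.14 late against early and from -0.14 to 0.12 late against middle, and FUR1 from -0.101 to 0.058. The URA7 to URA8 change ran from -1.69 to -1.10 late and from -1.84 to -1.25 in the middle (adjusted p from 0.012 to 0.0982); the late change passed without the 30, 45, 120 or 300 min library. At 106672 and 188278 reads, the 195 and 345 min libraries limit URA6, URA7 and FUR1 to no value in 1 library each.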
